A study of Mus musculus with 383 samples.

Results

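Among 265 vagal motor nuclei, 39 carried at least 5 reads of Atf3, a transcription factor gene that neurons switch on after axon damage, and 196 carried none. The 16 nuclei with 50 or more Atf3 reads had lower medians of the cholinergic and motor genes than Atf3-negative nuclei. Their medians of Ddit3 and Cdkn1a, a stress and a growth-arrest gene, were higher. The 23 nuclei with 5 to 49 reads had medians close to the negative ones for the motor genes and Ddit3. Their median of Cdkn1a lay between those of the negative nuclei and the 16. The strongly positive nuclei also held more glial marker reads. Of the 7 with few such reads, 3 had low and 4 had ordinary levels of the motor genes. The medians of Ddit3 and Sgcz, a sarcoglycan gene, still differed in these 7, but Ddit3 was not uniformly high in the 4. The 7 are part of the 16, and Sgcz was named from values that include them. Their medians are therefore no separate evidence of a difference apart from glial reads.

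The tissue was the brainstem's vagal motor nucleus (DMV), whose cholinergic neurons send the motor axons of the vagus nerve to the viscera. Nuclei were chosen from 383 sequenced nuclei by reads alone: 295 had at least 500000 reads and 1000 genes with a read, 294 of these also had a read of Chat or Slc5a7 (acetylcholine synthesis and choline uptake), and 265 also had a read of Tbx20, a transcription factor gene of visceral motor neurons. Atf3-positive nuclei had at least 5 Atf3 reads, Atf3-negative nuclei had 0, and 30 nuclei with 1 to 4 reads belonged to neither group. The positive nuclei were 14.7% of the kept ones (exact 95% interval 10.7% to 19.6%).

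All nuclei shared 1 genotype and treatment, so that both groups are subsets of 1 sample. The mice were males of the Chat-IRES-Cre line on a C57BL/6 background, in which Cre is made wherever Chat is transcribed. At 10 weeks of age they received 100 nL of AAV9-DIO-H2b-mCherry in the vagal motor nucleus, a virus that marks nuclei of Cre-expressing cells red, and tissue was taken 16 days later. Tissue of several animals was pooled, the labels name no animal, and all mice were injected. No test across animals was therefore possible, no p-value is given, and intervals cover counting error only.

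ATF3 is a member of the ATF/CREB family of leucine-zipper proteins and pairs with Jun proteins. It is scarcely made in resting neurons and is induced by axotomy, by the integrated stress response (in which ATF4 and then DDIT3, also called CHOP, are made) and by DNA damage through p53, whose best known target is Cdkn1a. In injured motor neurons it belongs to a regeneration programme with Jun, Sox11, Sprr1a and Gal, and transmitter genes such as Chat are known to decline in such neurons.

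Some nuclei resembled each other far more than most pairs did, and whether these are separate nuclei is unknown. Between kept nuclei the median correlation of log2(RPM + 1) over all genes was 0.69, where RPM is reads scaled to 1000000 after every nucleus was thinned to 500000 reads. In 11 pairs of kept nuclei it lay above 0.85, and the next pair was at 0.83. In the third block of 96 nucleus numbers, 8 such pairs had neighbouring numbers, all with 0 to 2 Atf3 reads. The other 3 pairs were formed by 3 positive nuclei, numbers 377, 378 and 382, which had 17, 8 and 7 Atf3 reads and correlations of 0.88 to 0.95. With only the deepest nucleus of each such set, 255 nuclei remained, of which 37 were positive (14.5%, 10.4% to 19.4%) and 189 negative.

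Atf3 lies at chr1:191170296-191218039 on the minus strand (GRCm38). Its reads in positive nuclei ranged from 5 to 716 with a median of 19, or from 2.70 to 592 RPM at full depth with a median of 19.2 RPM. These values chose the groups and are a description. Just outside the limit, 20 nuclei had 1 read, 4 had 2, 4 had 3 and 2 had 4. Just inside it, 13 nuclei had 5 to 10 reads. The positive nuclei thus spanned a wide range, with 23 at 5 to 49 reads and 16 at 50 or more.

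Positive nuclei occurred in every block of nucleus numbers. They were 14 of 70 nuclei in the first block, 9 of 68 in the second, 3 of 63 in the third and 13 of 64 in the fourth, and the strongly positive nuclei numbered 7, 3, 1 and 5. The labels do not say whether blocks are plates. The third block had the lowest share, 4.76% (0.993% to 13.3%), with an interval that overlapped those of the other blocks.

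**Figure D1:**
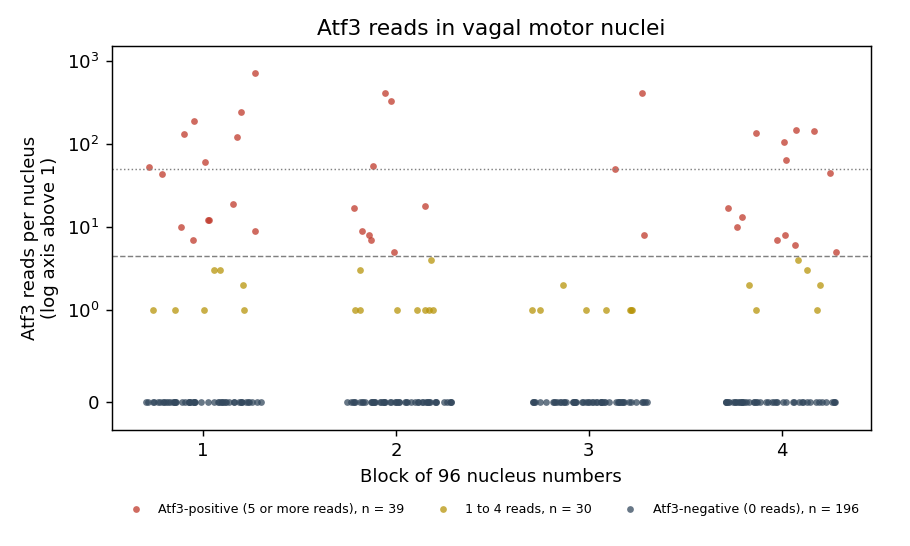
Atf3 reads in each of the 265 kept nuclei (y axis, log scale above 1) by block of 96 nucleus numbers (x axis). Each point is 1 nucleus; the dashed line separates 1 to 4 from 5 or more reads and the dotted line marks 50 reads. Positive nuclei lie in all 4 blocks, from 14 in the first to 3 in the third.

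Atf3-positive nuclei were found among nuclei with each of the peptide and receptor genes that divide the vagal motor nucleus. Of nuclei with at least 5 reads of Cck, the cholecystokinin gene, 1 of 16 was positive (6.25%, 0.158% to 30.2%), against 35 of 244 nuclei without Cck reads (14.3%, 10.2% to 19.4%). Of nuclei with Pdyn, the dynorphin precursor gene, 2 of 35 were positive (5.71%, 0.700% to 19.2%), against 35 of 223 without (15.7%, 11.2% to 21.1%). With Grp, the gastrin-releasing peptide gene, 2 of 23 were positive, against 36 of 237 without. The shares ran the other way for Sst, the somatostatin gene, with 4 of 18 positive (22.2%) against 35 of 243 without (14.4%), and for Cartpt, the CART peptide gene, with 16 of 93 (17.2%) against 22 of 162 (13.6%). These intervals overlap, so a difference was not detectable at these numbers of nuclei. Npy2r, a neuropeptide Y receptor gene, split the nuclei nearly evenly, with 21 of 155 positive where it had at least 5 reads and 17 of 102 where it had none.

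Positive nuclei held a wider set of genes than negative ones, which bears on every gene below. At 500000 reads the median positive nucleus had 10820 genes with a read (7124 to 15522), against 10029.5 in negative nuclei (6608 to 14667). Their median depth was lower, at 1284991 reads against about 1481440. Receptor genes of olfactory and vomeronasal sensory neurons, of which the table lists 1396, were also found more broadly, with a median of 80 in positive nuclei (27 to 260) against 45.5 in negative nuclei (8 to 362). Over the 17477 genes found in at least 10% of kept nuclei, the share of nuclei with a read was higher in positive nuclei for 68.2% of genes, with a median difference of 3.69 percentage points. The part of this breadth in the genes named next was not tested, beyond the values given for nuclei of like gene number.

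By share of nuclei, 138 genes were higher in Atf3-positive nuclei, which is 0.79% of the 17477 described, and 1 was lower, which is 0.00572%. A gene was called where the shares differed by at least 30 percentage points, the intervals did not overlap and the mean RPM differed at least 2-fold. Alox5, the 5-lipoxygenase that starts leukotriene synthesis, had the widest gap, with a read in 64.1% of positive nuclei (47.2% to 78.8%) against 17.3% of negative ones (12.3% to 23.4%). Its levels overlapped, because nuclei of both groups were at 0, but among the strongly positive nuclei the median was 83 RPM (0 to 334), against 0 (0 to 120) in negative nuclei. Plb1, a membrane phospholipase gene, was found in 61.5% of positive nuclei against 20.9%, and Fancd2, which acts in the repair of DNA crosslinks, in 69.2% against 25.0%.

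The higher genes included some of growth factor and cytokine signalling. Egfr, the receptor of epidermal growth factor, was found in 66.7% of positive nuclei against 25.5% of negative ones. Bmp6, a secreted ligand of the bone morphogenetic protein family, was found in 74.4% against 34.7%. Il1rap, the co-receptor of interleukin-1, was found in 94.9% against 59.2%, while its partner Il1r1 did not pass, at 56.4% against 44.4%. Met, the receptor of hepatocyte growth factor, was found in 84.6% against 53.6%, with a median of 92 RPM against 6. Of the 27 described genes of the cytokine and growth factor receptor list, these were the 2 called, Il1rap and Met. A higher share in positive nuclei was found for 18 of the 27, a proportion like the 68.2% of all described genes.

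Genes of DNA repair and cell division were called in nuclei that are postmitotic. From a list of 36 described genes of homologous recombination and Fanconi repair, 4 were higher, among them Fancd2, Brca1 and Rad54b, beside 0.79% of all genes. Brca1 was found in 61.5% of positive nuclei against 25.0%. Of 27 cell division genes, 4 were higher, among them Kif14, Mybl2 and Kif4. Kif14, a kinesin of cytokinesis, was found in 56.4% against 16.3%. Both lists were put together after the called genes had been seen, so that their counts are a description of the 138 genes. The levels were low, with medians in positive nuclei of 4 RPM for Fancd2 and Brca1 and 2 RPM for Kif14.

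Further genes higher by share had other roles. Tshr, the thyrotropin receptor, was found in 64.1% of positive nuclei against 27.0%, and was the 1 called gene of 41 described peptide and transmitter receptors. Nfe2l2, which encodes the antioxidant regulator NRF2, was found in 61.5% against 27.6%. Tspan15, a tetraspanin that partners with the protease ADAM10, was found in 64.1% against 24.5%, and Snhg15, a host transcript of small nucleolar RNAs, in 56.4% against 15.8%. Tmem140, Pkhd1l1, Dmrt1, Tuft1 and Serpinb3b completed the annotated genes with the widest gaps, at 59.0% to 87.2% of positive nuclei against 16.8% to 49.0% of negative ones. The only lower gene was Ctxn2, a cortexin gene, found in 28.2% of positive nuclei (15.0% to 44.9%) against 61.2% (54.0% to 68.1%).

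**Figure D2:**
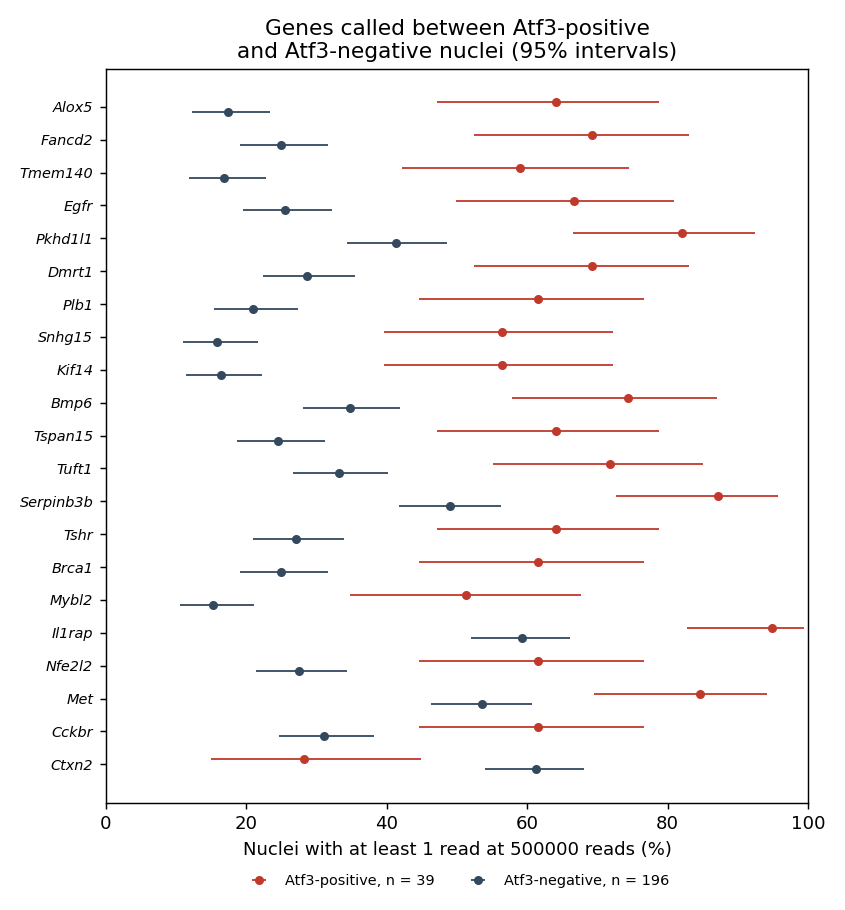
Share of nuclei with at least 1 read after thinning to 500000 reads (x axis, %) for 21 genes called between Atf3-positive (red, upper point) and Atf3-negative nuclei (blue, lower point). Bars are exact 95% intervals. From Alox5 (64.1% against 17.3%) to Cckbr (61.5% against 31.1%) the positive nuclei lie to the right, and Ctxn2 (28.2% against 61.2%) is the reverse.

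Which genes passed depended on the random thinning, since most were found at 1 to a few reads. A second draw called 130 genes higher, and 72 of the 138 were among them. Alox5, Fancd2 and Plb1 stayed called in the second draw, without any 1 block, without nuclei rich in glial markers, without nuclei rich in olfactory receptor genes, within nuclei of like gene number and with near-identical nuclei counted once. Nuclei of like gene number were those with 10160 to 12485 genes, the middle range of the positive ones. In them 57 genes were higher and 33 lower between 19 positive and 87 negative nuclei, and the median share difference over all genes was 0. Of the 27 named share-higher genes 9 were still called there, and Brca1, Met, Nfe2l2, Bmp6, Snhg15, Tspan15 and Il1rap were not. Without nuclei rich in glial markers 12 of the 27 were called, and without those rich in olfactory receptor genes 15. Cckbr, Kif4 and Rad54b lost their call with near-identical nuclei counted once, and of the genes named here Kif14, Dmrt1, Serpinb3b, Il1rap, Dnah12 and Cckbr lost it in the second draw.

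Genes found in nearly every nucleus were compared by level. Among 3219 genes found in at least 90% of both groups, 23 (0.715%) had a median RPM at least 2-fold higher in positive nuclei and 15 (0.466%) at least 2-fold lower, after adding 2 RPM. Gpc6, a heparan sulphate proteoglycan of the glypican family, was lowest relative to negative nuclei, with a median of 136 RPM against 623. Its levels overlapped widely and were 623, 230, 252 and 118 RPM at 0, 1 to 4, 5 to 49 and 50 or more Atf3 reads. Adcy3, an adenylyl cyclase gene, had a median of 12 RPM in positive against 38 RPM in negative nuclei, and Ryr3, a calcium release channel gene, 150 against 380 RPM. Abcc8, which encodes the sulphonylurea receptor of ATP-sensitive potassium channels, had 78 against 207 RPM, and Vsnl1, a neuronal calcium sensor, 138 against 358 RPM.

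Dach2, a transcription factor gene of the dachshund family, rose most by level of the 23, with a median of 40 RPM in positive nuclei against 8 RPM. Its median was 8, 34, 40 and 45 RPM over the 4 groups of Atf3 reads, so the nuclei with 1 to 4 reads were already above the negative ones. Spag16, a gene of ciliary axonemes, had 98 against 28 RPM, Skint6 106 against 37 RPM, Cdh12, a cadherin gene, 224 against 93 RPM, and Mpp7, a polarity scaffold, 142 against 64 RPM. The 23 higher genes were long, with a median gene length of 515 kb against 75.6 kb over all genes compared by level, and the 15 lower genes had a median of 111 kb. Of the 8 higher genes with the largest ratio, 4 passed again in the second draw, and of the 8 lower, 6. Without nuclei rich in glial markers 2 of the 8 higher and 4 of the 8 lower passed. Without those rich in olfactory receptor genes 2 and 7 passed, and within nuclei of like gene number 4 and 6. Spag16 and Skint6 lost their call in the first 2 of these subsets, Mpp7 without the glia-rich nuclei and Cdh12 without the olfactory-rich ones. Dach2, Gpc6 and Adcy3 passed under each of the settings listed for Alox5.

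Near the called genes, the AP-1 letters TGANTCA were looked for on both strands in the RefSeq promoter table (GRCm38.p6), which covers 250 bases before to 50 bases after each start. AP-1 is the site of Jun dimers, partners of ATF3, and a match describes letters only. Of 94 share-higher genes with a promoter in the table, 13 (13.8%) held them, against 6.84% of the described genes and 8.97% of all promoters. The ATF/CRE letters TGACGTCA were in 1 of the 94 (1.06%), Snhg15, against 3.24% of the described genes. For the genes called by share in the strongly positive nuclei, described further on, the AP-1 letters were in 10.2% of 421 promoters of higher and 5.15% of 97 promoters of lower genes. The windows of 4 called genes and of Ddit3, a stress gene followed below, are shown as examples of a match before the RefSeq start. They run 5′ to 3′ on the gene's strand with the matched letters in capitals. Other called genes with such a match, among them Fas, are not shown.
Tspan15, chr10:62231219-62231245, minus strand: tgattgcggcgcgccTGAGTCAgtcca
Plb1, chr5:32238869-32238905, plus strand: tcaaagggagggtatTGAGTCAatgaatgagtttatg
Met, chr6:17463888-17463924, plus strand: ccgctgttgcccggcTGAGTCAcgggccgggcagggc
Snhg15, chr11:6528826-6528863, minus strand: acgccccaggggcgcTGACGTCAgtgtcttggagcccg
Ddit3, chr10:127290543-127290572, plus strand: cgcgcgcaTGACTCActcacctcctccgcg
The match began 12 bases before the RefSeq start in Tspan15, 200 in Plb1, 54 in Met, 88 in Snhg15 and 242 in Ddit3. In the GENCODE annotation Plb1 (chr5:32232708-32366520), Met (chr6:17463800-17573980) and Tspan15 (chr10:62185396-62231251) begin further upstream, so these 3 matches lie inside the annotated gene.

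Few members of the injury and stress lists were called between all positive and all negative nuclei, as few genes were called at all (0.79% higher). Of 27 described axon injury and regeneration genes, 1 was higher, Cckbr, a cholecystokinin receptor gene known to rise in axotomised sensory neurons of the rat, at 61.5% against 31.1%. This call was unstable, as it held in 2 of 9 other settings. Before thinning the shares of Cckbr were 66.7% against 56.6%. Jun was found in 76.9% of positive against 65.8% of negative nuclei, Sox11 in 61.5% against 43.9%, and Sprr1a in 5.13% against 2.55%, and none of these passed. Gap43, a growth cone gene, was present in nearly all nuclei at medians of 410 against 406 RPM, and Ecel1, a damage-induced peptidase gene, at 372 against 447 RPM. Gal, the galanin gene that rises in cut motor neurons, had a median of 156 RPM in positive nuclei against 272, which did not pass, and Adcyap1, the PACAP gene, 122 against 162 RPM.

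No stress gene of the following lists was called between all positive and all negative nuclei. The lists held 19 AP-1 and immediate early genes, 24 integrated stress response genes, 14 unfolded protein response genes, 17 p53 and cell death genes, 13 DLK and JNK pathway genes, 11 heat shock genes and 26 interferon response genes. Of 56 ion channel genes none was called by share, and 1 of 30, Cacna2d3, was higher by level, beside 0.715% of all genes compared by level. No call was made among 16 peptide genes, 13 nitric oxide and calcium genes or 8 pan-neuronal markers. Of 19 neuronal calcium and excitability genes compared by level, 5 were lower, namely Vsnl1, Ryr3, Abcc8, Adcy3 and Sphkap, beside 0.466% of all genes compared. That list was made after seeing values, so its count only describes the lower genes. Outside the lists, some called genes have known roles in stress, among them Fas, a death receptor gene (43.6% against 12.2%), Trp53cor1, a p53-induced transcript (43.6% against 8.67%), and Creb3l1, a membrane-bound stress transducer (56.4% against 23.5%), all chosen after their values were seen. Median share differences were 12.1 points for the p53 list, 9.80 for AP-1, 7.05 for the integrated stress response and 0 for heat shock and for channels, beside 3.69 over all genes. Ddit3 had a median of 72 RPM in positive against 26 RPM in negative nuclei, and Cdkn1a 48 against 10 RPM, but neither was found in enough nuclei to be compared by level. Of 19 described cholinergic and motor identity genes none was called, and their median difference was -4.64 points.

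When nuclei were ordered by Atf3 reads, the motor identity genes stayed level up to 49 reads. The summed level of the identity list, which includes Chat, Slc5a7 and Tbx20 that chose the nuclei, had medians of 2747, 2751, 2592 and 690 RPM at 0, 1 to 4, 5 to 49 and 50 or more Atf3 reads. It lay under 1313 RPM, the 5th percentile of negative nuclei, in 12 of the 16 strongly positive nuclei, against 10 of 196 negative ones. Among the intermediate groups 1 of 30 and 2 of 23 were that low. The other 4 strongly positive nuclei had 2784 to 5106 RPM, within the range of negative nuclei, and among them was the nucleus with the most Atf3 reads.

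Single motor genes followed this order. Slc5a7, the choline transporter, had medians of 396, 441, 310 and 69 RPM over the 4 groups, and Chat 197, 198, 174 and 78 RPM. By the share rule 3 of the 19 identity genes were lower in strongly positive nuclei, beside 0.887% of all genes. Nefl, a neurofilament subunit, was found in 68.8% against 99.5% of negative nuclei, and Hoxd3, a hindbrain Hox gene, at 18.8% against 58.2%. Nefm, another neurofilament subunit, was lower by level, with 144 against 352 RPM. Tbx20 itself had medians of 203, 214, 210 and 112 RPM. Chat was found in 12 of 16 strongly positive nuclei and in 195 of 196 negative nuclei at this depth, which did not reach the 30 points of the rule.

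Ddit3 had the opposite order, though it passed neither rule. Its medians were 26, 12, 24 and 189 RPM, with ranges of 0 to 844 RPM in the 16 strongly positive and 0 to 242 RPM in the 196 negative nuclei. It lay above 100.5 RPM, the 95th percentile of negative nuclei, in 11 of 16, against 10 of 196. At 1 to 4 and 5 to 49 Atf3 reads it did so in 1 of 30 and 4 of 23. Cdkn1a had medians of 10, 10, 24 and 114 RPM and lay above its 95th percentile of 114 RPM in 8 of 16 against 10 of 196. In the groups between, Cdkn1a was that high in 5 of 30 and 3 of 23. Ddit3 above that level together with an identity sum under 1915.5 RPM, the 25th percentile of negative nuclei, was found in 10 of the 16 nuclei (62.5%), against 3 of 196 (1.53%). In the groups between it was found in 1 of 30 and 1 of 23.

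**Figure D3:**
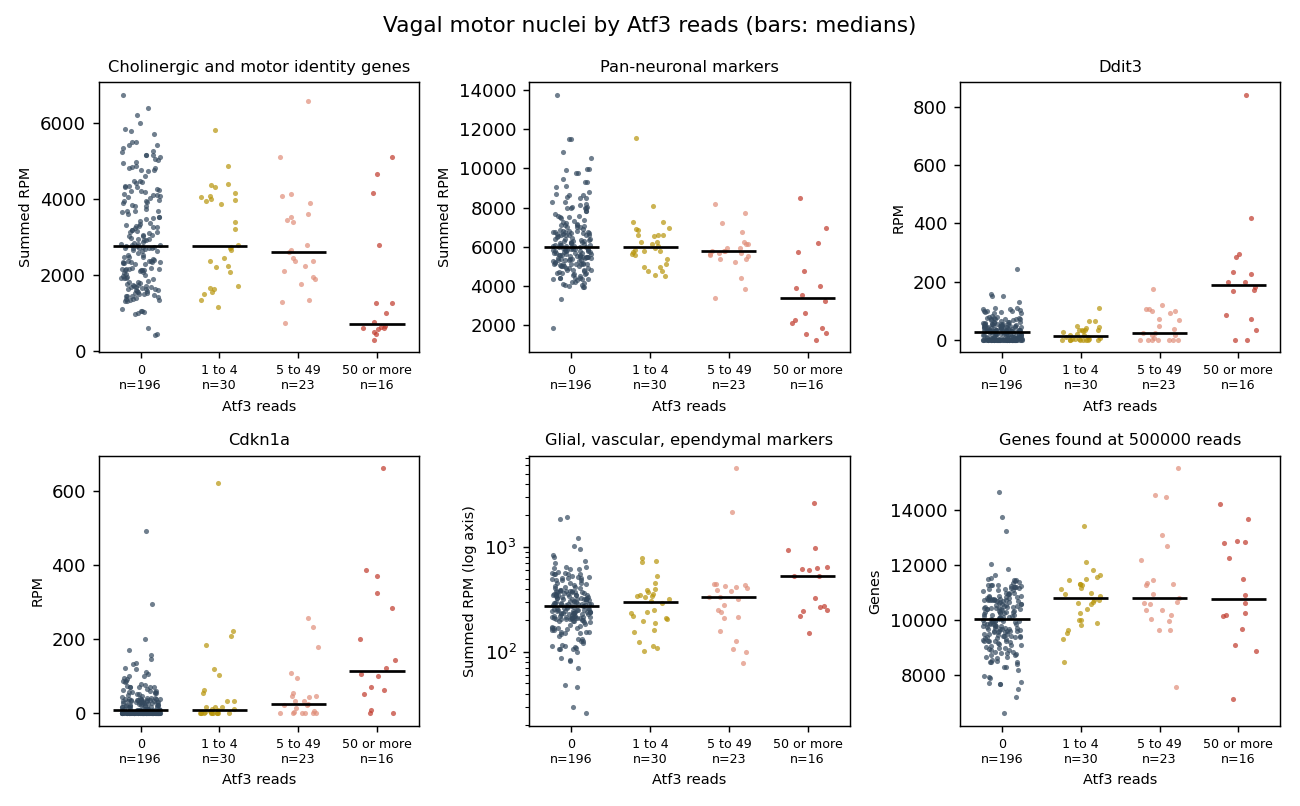
Levels per nucleus (points) and medians (black bars) by Atf3 reads (x axis, 0, 1 to 4, 5 to 49, 50 or more) for summed identity genes, summed pan-neuronal markers, Ddit3, Cdkn1a, summed glial, vascular and ependymal markers (log axis), all in RPM, and the number of genes found. Identity medians are 2747, 2751, 2592 and 690 RPM and Ddit3 medians 26, 12, 24 and 189 RPM, while glial markers have 274, 300, 330 and 530 RPM.

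Over all genes, the 16 strongly positive nuclei were set against the 196 negative ones. The counts are not comparable with those of the larger groups, since medians of fewer nuclei vary more. By share 596 genes were higher (3.41%) and 155 lower (0.887%), and by level 161 of 2860 were higher (5.63%) and 191 lower (6.68%). The 23 nuclei with 5 to 49 reads, set against the same negative nuclei, had 227 genes higher (1.30%) and 2 lower (0.0114%) by share, and 31 higher (0.882%) and 12 lower (0.342%) of 3513 by level. Set directly against these 23, the 16 nuclei had 46 genes higher (0.263%) and 66 lower (0.378%) by share, and 272 higher (8.60%) and 217 lower (6.86%) of 3161 by level.

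Some stress genes were higher in strongly positive nuclei, where 3.41% of all genes were higher by share and 5.63% by level. Of 17 p53 and cell death genes, 3 were higher by share, among them Phlda3 and Tnfrsf10b, and none lower. Phlda3, a p53 target that restrains AKT, was found in 93.8% against 62.2%. Of 24 integrated stress response genes, Chac1 and Vldlr were higher by share. Only 3 of that list could be compared by level, Slc3a2, Cars and Aars, and all were higher. Cars, a cysteinyl-tRNA synthetase gene, had a median of 233 against 66 RPM, and 11 of 16 nuclei lay above the 95th percentile of negative nuclei. Slc3a2, an amino acid transporter chain, had 166 against 59 RPM. Of 14 unfolded protein response genes none was called by share. Of the 5 compared by level, Atf6, an endoplasmic reticulum stress sensor, was higher at 227 against 62 RPM, as was Syvn1. Of 26 interferon response genes Rsad2 was higher and 1 gene lower by share, near the rate over all genes. Of the 5 compared by level H2-D1 was higher. Hspa8, a constitutive chaperone gene, was higher among the 6 heat shock genes compared by level, and none of the DLK and JNK pathway or neuropeptide genes was called.

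The antioxidant and immediate early lists also held called genes, beside 3.41% higher and 0.887% lower by share and 5.63% higher by level of all genes. Nfe2l2 was found in 15 of 16 strongly positive nuclei, with a median of 36 RPM, against 54 of 196 negative nuclei, with a median of 0. From the same NRF2 list of 12, put together after values had been seen, Hmox1 (haem oxygenase) was found in 43.8% against 8.67% and Srxn1 in 93.8% against 61.2%. Txnrd1, the 1 higher of 3 compared by level, had a median of 191 against 90 RPM. Of 19 AP-1 and immediate early genes, Fos was found in 43.8% against 9.18%, Egr1 in 43.8% against 10.7%, Nr4a1 in 56.2% against 17.9% and Btg2 in 75.0% against 37.8%, while Nr4a2 was lower, in 56.2% against 87.8%.

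Injury genes were called in part. Of 27 described, Cd44, Tnfrsf12a and Inhba were higher by share, beside 3.41% of all genes. Stat3 and Stmn4 were higher by level of 9 compared, beside 5.63%, and none was lower than in negative nuclei. Set against the nuclei with 5 to 49 reads, Klf7, Sema6a and Stmn4 were higher and Gap43, Ecel1 and Chl1 lower by level, of 10 compared. Over all genes 8.60% were higher and 6.86% lower in that comparison. Tnfrsf12a, the TWEAK receptor induced in regenerating neurons, was found in 62.5% of the 16 nuclei against 25.5%, and Stmn4, a microtubule regulator, had a median of 74 against 26 RPM. Jun had medians of 12, 8, 16 and 40 RPM over the 4 groups and Sox11 0, 0, 2 and 26 RPM, and neither was called. Sprr1a was found in 1 of the 16 nuclei and Gal had a median of 55 against 272 RPM. Among receptors, Calcr, the calcitonin receptor, Tshr and Htr7, a serotonin receptor, were higher by share, and Hcrtr1, an orexin receptor, and P2rx2, an ATP-gated channel, were lower, of 41 described. Beside these stand 3.41% higher and 0.887% lower of all genes, so the counts are only a few genes.

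Several abundant neuronal genes were lower by level, among them some ion channel genes. Sgcz, a sarcoglycan gene, had a median of 1145 RPM (292 to 2712) in the 16 nuclei against 5248 RPM (12 to 14636), and all 16 lay under the negative median. In the nuclei with 5 to 49 reads its median was 4434 RPM. Kcnb2, a delayed rectifier potassium channel gene, had 586 (280 to 1774) against 1987 RPM (104 to 6118), and again all 16 lay under the negative median. Of 26 channel genes compared by level, Scn9a, Cacna1e, Kcnb2, Kcnd2, Kcnn3 and Kcnj3 were lower and none higher, beside 6.68% lower of all genes compared. By share Scn2b and Kcnk1 were lower of 56, beside 0.887% of all genes, and of 29 neuronal calcium and release genes none was. By level 6 of 16 genes of that list, made after values had been seen, were lower and none higher. These were Ryr2, Ryr3, Camk4, Atp2b2, Sphkap and Syt1, and the list's summed median was 4479 RPM against 8411 RPM in negative nuclei. Ly6h, which binds nicotinic receptors, was found in 25.0% of the 16 nuclei against 91.3% of negative ones, and Grin2d, an NMDA receptor subunit gene, in 43.8% against 89.8%. Of 6 pan-neuronal markers compared by level, Syt1 and Elavl4 were lower.

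**Figure D4:**
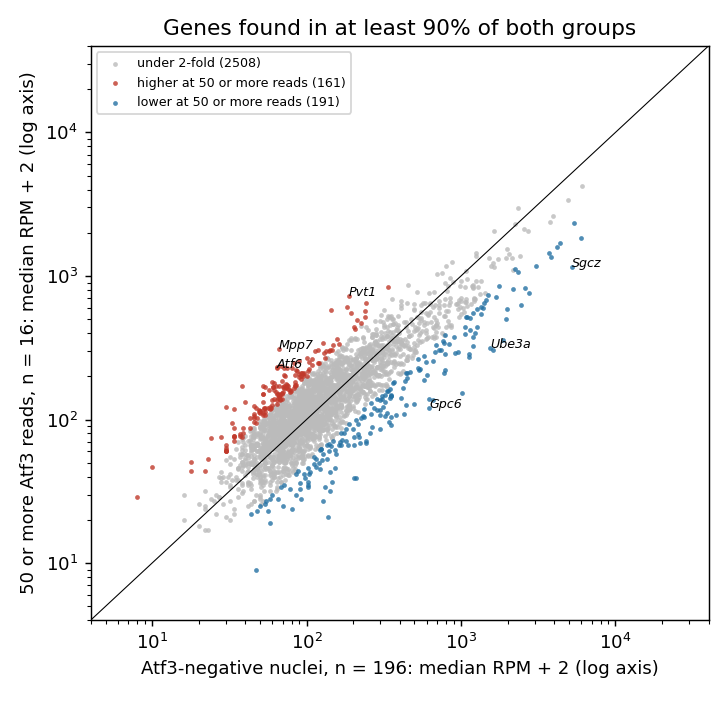
Median RPM + 2 in the 16 nuclei with 50 or more Atf3 reads (y axis, log) against the 196 Atf3-negative nuclei (x axis, log), 1 point per gene found in at least 90% of both groups. Red points are at least 2-fold higher (161 genes) and blue points at least 2-fold lower (191 genes) in the 16 nuclei; the line marks equal levels. Sgcz, at 1145 against 5248 RPM, lies among the most abundant lower genes.

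**Figure D5:**
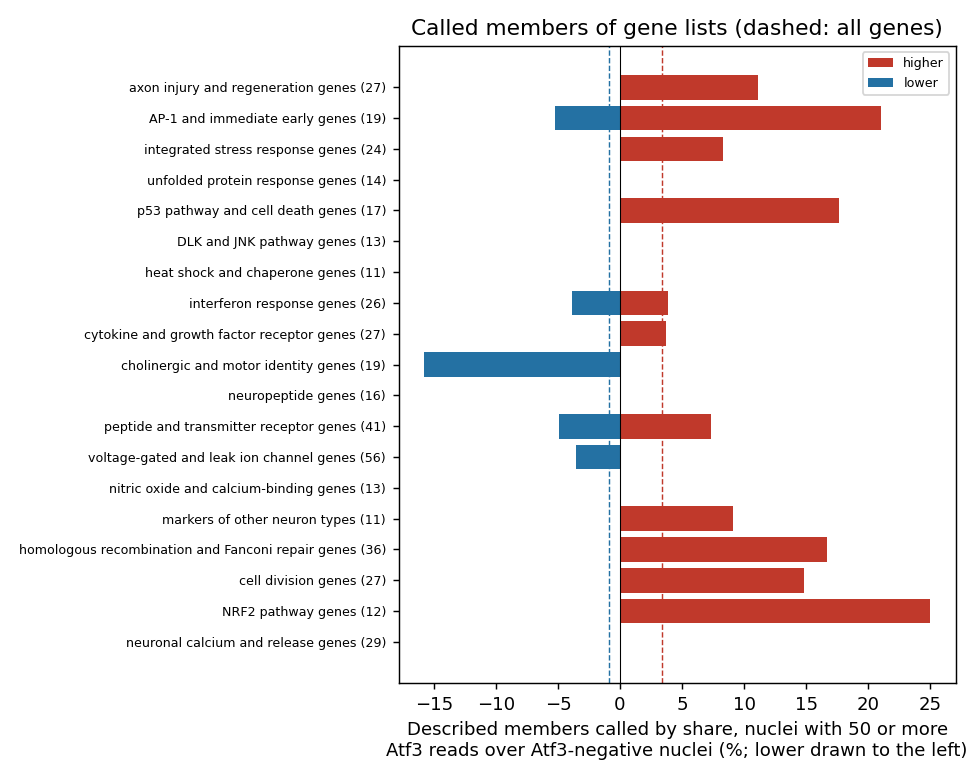
Percentage of described members of each gene list (number in brackets; lists with at least 10) called by share in nuclei with 50 or more Atf3 reads over Atf3-negative nuclei, higher to the right and lower to the left. Dashed lines give the same for all genes, 3.41% and 0.887%. The identity list has 3 of 19 lower and the NRF2 list 3 of 12 higher.

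Reads of other cell types were checked in each nucleus. The summed level of glial, vascular and ependymal markers had a median of 334 RPM in positive nuclei (78 to 5602) against 274 RPM in negative ones (26 to 1914). By Atf3 reads the medians were 274, 300, 330 and 530 RPM. For oligodendrocyte markers the medians were 74 RPM in positive against 76 RPM in negative nuclei, for astrocyte markers 90 against 53, for microglial markers 84 against 58, for vascular markers 56 against 13, for ependymal markers 10 against 2 and for oligodendrocyte precursors 0 against 0. Mbp, the myelin basic protein gene, had the same median of 22 RPM in both groups, and Slc1a3, an astrocyte glutamate transporter gene, was found in 51.3% against 35.7%. By the share rule none of 7 oligodendrocyte, 8 astrocyte, 6 microglial and 6 vascular markers described was called. The 1 described ependymal marker, Dnah12, was (79.5% against 48.0%). Only 0.79% of all genes were called higher, so the lack of a call among so few markers says little about admixture. Among positive nuclei, Opalin, C1ql1, Cldn5 and Rarres2 had no read in any nucleus. Many markers of their lists were rare in negative nuclei as well, so these absences may say little. Found in under 10% of negative nuclei were 4 of 10 oligodendrocyte, 5 of 6 precursor, 5 of 11 vascular and 5 of 6 ependymal markers. All 8 astrocyte, 6 microglial and 6 vascular markers described had a higher share in positive nuclei, as had 5 of 7 oligodendrocyte markers. The median differences were 12.6, 6.24, 17.8 and 4.98 points in that order, beside 3.69 over all genes, of which 68.2% were higher. Pecam1, an endothelial adhesion gene, was found in 71.8% against 44.4%. The part of these markers in the called genes was not tested.

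In the strongly positive nuclei the same lists had medians of 106 against 76 RPM for oligodendrocytes, 110 against 53 for astrocytes, 96 against 58 for microglia and 22 against 13 for vascular cells. Of 14 microglial markers, Tmem119, C1qc and Tyrobp had no read in any of the 16 nuclei, and of 10 oligodendrocyte markers Mag, Opalin and Ermn had none. In negative nuclei 8 of the 14 and 4 of the 10 were found in under 10% of nuclei, so these absences say little. The median share of a marker was 18.8% against 8.93% for microglia and 15.6% against 12.0% for oligodendrocytes. Gja1, an astrocyte connexin gene, was the 1 of 8 described astrocyte markers called, in 43.8% against 11.7%, beside 3.41% of all genes higher. Markers of other neuron types had a median of 102 against 54 RPM, of which Slc6a5, a glycine transporter gene, was called, in 43.8% against 12.8%. Of the lymphocyte markers Cd4 was the 1 described, and it was called higher, by 32.5 points. The sum of that list lay above 16 RPM, the 95th percentile of negative nuclei, in 6 of 16 nuclei against 9 of 196.

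The lower level of motor genes went with these reads. Above 388 RPM of glial, vascular and ependymal markers, the 75th percentile of kept nuclei, 9 strongly positive nuclei had an identity sum of 290 to 1244 RPM with a median of 594, against a median of 2499 RPM in 42 negative nuclei. At or under 388 RPM, 7 strongly positive nuclei were split, with 562, 744 and 1266 RPM in 3 of them and 2784, 4146, 4654 and 5106 RPM in the other 4. Their median was 2784 RPM, against 2845 RPM (440 to 6748) in 154 negative nuclei. The pan-neuronal sum behaved likewise, at 2098 against 5832 RPM in marker-rich nuclei and 5740 against 5979 RPM in the others. Whether the markers and the identity genes moved together through admixed RNA was not tested.

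The medians of Ddit3, Cdkn1a, Abcc8 and Sgcz differed in both subsets. The subsets only divide the 16 nuclei, and Abcc8 and Sgcz were named from values of nuclei that include them. For these genes the subsets are therefore no separate evidence. In the 7 marker-poor strongly positive nuclei Ddit3 had a median of 180 RPM against 22 RPM, Cdkn1a 102 against 12 RPM, Abcc8 96 against 212 RPM and Sgcz 1330 against 5409 RPM. Those of the 7 with identity sums of 562, 744 and 1266 RPM had Ddit3 at 226, 284 and 180 RPM and Cdkn1a at 102, 662 and 388 RPM. Those with 2784, 4146, 4654 and 5106 RPM had Ddit3 at 198, 0, 86 and 34 RPM and Cdkn1a at 72, 122, 0 and 0 RPM. In the 9 marker-rich ones Ddit3 had 198 against 28 RPM, Cdkn1a 144 against 3 RPM, Abcc8 12 against 157 RPM and Sgcz 1144 against 3482 RPM. Nefl, called lower over all 16, had 540 against 487 RPM in the marker-poor nuclei and was not lower there, and Nefm had 492 against 356 RPM. Without the marker-rich nuclei 52 genes were higher and 30 lower by share, and 194 higher and 170 lower by level. Of the 596 share-higher genes 31 kept their call and of the 155 lower genes 16, in nuclei that are part of those that chose them.

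Ifi202b, Alox5, Nfe2l2 and Ly6h kept their share call among marker-poor nuclei. Ifi202b, an interferon-inducible gene, was found in 71.4% against 18.8% there, and Ly6h in 28.6% against 93.5%. Cars, Slc3a2, Aars, Atf6, Stat3 and Stmn4 kept their level call there, as did Gpc6, Kcnb2, Ube3a and Ryr3 among the lower genes. Met was found in all 16 strongly positive nuclei (14 to 554 RPM) but was not called among the 7 marker-poor ones, where it had a median of 160 RPM against 4 RPM.

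Within blocks the strongly positive nuclei had these values. In the first block the identity medians were 1244 RPM in 7 strongly positive against 2392 RPM in 49 negative nuclei, in the second 744 against 3669 RPM with 3 nuclei, and in the fourth 594 against 2532 RPM with 5. Ddit3 medians were 170 against 28, 284 against 31 and 198 against 28 RPM in these blocks, and the third block held 1 strongly positive nucleus, at 226 RPM against a median of 10 RPM.

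Deep cholinergic nuclei without a Tbx20 read took no part in choosing the genes: 7 had at least 5 Atf3 reads and 18 had none. Between these, 124 of the 138 genes (89.9%) had a higher share in the 7 nuclei, beside 62.8% of all genes. By level 19 of the 23 higher and 12 of the 15 lower genes kept their direction, beside 42.5% and 56.7% over all genes. The 62.8% is not a like base for the 138 genes. Their median share in the kept negative nuclei was 26.8%, against 55.6% over all described genes, and genes found in every nucleus cannot be higher. The 7 nuclei also had more glial, vascular and ependymal reads, with a median of 896 against 340 RPM, and more genes, 11106 against 9168.

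The table was counted without a stated use of strand, so overlapping genes cannot be told apart. This touches Chat, whose gene contains Slc18a3, the vesicular acetylcholine transporter gene, and Fancd2 and Egfr, which overlap the transcripts Fancd2os and Egfros. It also touches Adcy3 with Cenpo, Ryr3 with Aven, Bmp6 with Txndc5, Kif4 with Pdzd11, Gpr39 with Lypd1, Tmem140 with Cyren, and Ddit3, which the annotation lists with Mars in the same interval. Serpinb3b overlaps its close relative Serpinb3c and is uncertain for that reason as well.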

How the data were processed

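The authors' deposited table holds whole-number read counts per gene for 29779 genes in 383 single nuclei, not normalised. Per the labels' protocols, nuclei were sorted 1 per well, and libraries were made with Smart-seq2 and 22 PCR cycles without molecular identifiers, so that reads are not independent molecules. Per the submitters' processing notes the build was GRCm38, and bcl2fastq, STAR, Picard, edgeR and Seurat 3 are named without roles. Annotation, counting mode and strand are not given in the sources used here. Kept nuclei had 532391 to 4699420 reads. The protocol also mentions sections near the suprachiasmatic nucleus, which was not resolved.

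Each nucleus was thinned at random to 500000 reads, at which 1 read is 2 RPM, and a gene with at least 1 read counted as found. Shares have exact Clopper-Pearson 95% intervals. The call rules are given with their first counts. The rules were tested on simulated data in which both groups had the same detection rates apart from the genes changed on purpose. The wider gene set of the real positive nuclei was not part of that simulation, so it cannot show how the rules behave under it. Python 3.11.15, numpy 2.4.6, pandas 2.3.3 and scipy 1.17.1 were used. The labels tie no nucleus to an animal, so all nuclei are 1 sample and no test was run.

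Members and lists were chosen with earlier results of these data known, and 4 lists (repair, cell division, NRF2 and neuronal calcium genes) after seeing values. Named were 25 preset genes, the 15 widest share calls and 8 largest level ratios in each direction, and up to 4 called members of each list, or else its member with the widest difference. Genes named for the 16 strongly positive nuclei were chosen after their values were seen. Gene positions are from GENCODE M21. Alternatives were other depths, draws, limits on Atf3 reads, gene filters, thresholds, pseudocounts, and subsets of nuclei. Some called genes that these rules select are counted but not reported here by name.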

Additional observations from a re-analysis of the deposited data

Results flagged for a closer look

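Atf3 was also found outside the nuclei compared. Of 29 deep cholinergic nuclei without a Tbx20 read, 7 had at least 5 Atf3 reads, which is 24.1% (exact 95% interval 10.3% to 43.5%). This overlaps the 14.7% (10.7% to 19.6%) of the kept nuclei, so a difference was not detectable. The result was singled out because these nuclei took no part in the main comparisons and the share passed the 10.3% that a count of 0 allows. The 7 nuclei had a median of 79 Atf3 reads, an identity sum of 1676 RPM against 1884 RPM in the 18 such nuclei without Atf3, and vascular markers at 248 against 21 RPM. The part of these reads in the result was not tested.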

How the results depend on the processing

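In all positive nuclei, against 138 genes called higher by share and 1 lower, and 23 higher and 15 lower by level, most counts moved by over 1.5 times with at least 1 setting, in no case with a named gene changing direction. Without thinning 2 genes were lower by share and 57 higher by level; at 1000000 reads 0 were lower by share; a second draw gave 2. With 1 Atf3 read as the limit 12 were higher by share, and 13 higher and 3 lower by level. With 20 reads as the limit 491 were higher and 90 lower by share, and 91 higher and 129 lower by level. Groups set by Atf3 reads after thinning gave 311 and 11 by share and 38 lower by level. Without nuclei high in glial markers 64 were higher and 5 lower by share and 28 lower by level. Within the middle range of gene numbers 57 and 33 were called by share and 35 and 66 by level. A gene found only from 5 reads gave 68 and 8, and a limit of 40 points 9 and 0. Level genes in 75% of both groups gave 152 and 67, and a pseudocount of 10 RPM gave 13 higher. Without the first block 380 were higher and 5 lower by share and 35 higher by level, without the second 282 and 3 by share and 24 lower by level, and without the fourth 11 lower by share and 36 and 45 by level.

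The following were chosen after seeing the data. Without nuclei high in olfactory and vomeronasal receptor genes 58 were higher and 32 lower by share and 50 lower by level, and with near-identical nuclei counted once 3 were lower by share. For the 16 strongly positive nuclei, where the counts were 596 and 155 by share and 161 and 191 by level, leaving out nuclei high in glial markers gave 52 and 30 by share. The middle range of gene numbers gave 43 and 53, and leaving out nuclei high in olfactory and vomeronasal genes 85 and 86. Without the first block 223 were higher by share, and without the fourth 353 and 94 by share and 283 and 289 by level. These subsets hold fewer nuclei and so have wider intervals; other causes were not tested. No paired analysis was possible because all nuclei belong to 1 group with no replicate numbers shared between groups. Genes at 1 to a few reads are limited by depth, as 72 of 138 share calls returned in the second draw.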

Other observations

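Peptide and receptor genes that mark subsets of the vagal motor nucleus had the following shares in the 16 nuclei with 50 or more Atf3 reads, a number too small to show a difference for rare genes. Cck and Grp had a read in none of them, with an exact 95% interval up to 20.6%, against 7.65% and 11.2% of negative nuclei. Pdyn was found in 1 of 16, against 14.8% of negative nuclei. Cartpt was found in 5 of 16 (31.2%) against 36.2%, Calb2 in 18.8% against 36.2%, Th in 37.5% against 41.3%, Nppb in 18.8% against 20.4%, Penk in 12.5% against 16.8%, Sst in 12.5% against 6.63% and Vip in 18.8% against 9.69%. Npy2r was found in 5 of 16 (31.2%, 11.0% to 58.7%), against 123 of 196 (62.8%, 55.6% to 69.5%), with medians of 0 against 59 RPM. It did not pass, because the intervals overlap. In the 23 nuclei with 5 to 49 Atf3 reads Npy2r was found in 69.6%.

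Rorb and Gpr39, an orphan nuclear receptor and a zinc-sensing receptor gene, were more often found at the lowest Atf3 counts already. Rorb had shares of 38.3%, 66.7%, 69.6% and 62.5% at 0, 1 to 4, 5 to 49 and 50 or more Atf3 reads, and Gpr39 30.1%, 63.3%, 56.5% and 43.8%. Over all positive nuclei neither passed the rule, with differences of 28.4 and 21.2 points.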
